A study of Mus musculus with 6 samples.

Results

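The 10 genes described here are members of the ETS family of transcription factors, measured in 2 mouse melanoma cell lines. They are the PEA3 group (Etv1, Etv4 and Etv5), Ets1 and Ets2, the ternary complex factors Elk1 and Elk3, Elf1, and the repressors Etv6 and Erf. Probes were taken as theirs where the accession given for the probe in the scanner files belonged to one of the 10 genes in the RefSeq gene table, which gave 17 of the 39429 probes of the array and all 10 genes of the 20659 with a probe. B16-F1, a line of the B16 melanoma of the mouse, was compared with D5.1G4, for which the labels say only that it is a melanoma line. RNA of each line was put on 3 arrays, numbered replicates 1, 2 and 3. Cells of both lines were untreated and had grown for 24 h in RPMI-1640 with 10% serum to a confluence between 75% and 95%. The labels do not say whether replicates were separate cultures, so p-values measure the spread between arrays, part or all of which may be technical.

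ETS proteins share a winged helix-turn-helix domain that binds DNA around a GGAA core, and differ in their partners and in whether they activate or repress. The PEA3 group is transcribed in response to receptor tyrosine kinase signalling through RAS and the ERK kinases, is held back by the repressor capicua, and its proteins are marked for degradation by COP1 with DET1. ERK also phosphorylates Ets1, Ets2 and Elk1, which raises their activity, and drives the repressor Erf out of the nucleus. In human melanoma ETV1 is known as an amplified oncogene that acts with MITF.

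Signals are given on the log2 scale relative to the 75th percentile of the same array, which is 0, so a value of -1 is 1 log2 unit below that percentile. They compare arrays for the same probe and not probes with each other, since probes differ in brightness. A probe is said to be at background where the scanner software did not mark it as well above background. A gene was called when limma's adjusted p was 0.05 or less and the fold at least 2, that is a log2 difference of 1 or more, B16-F1 minus D5.1G4. The 75th percentile was an intensity of 838.9 to 2035, and 53.4% to 62.0% of spots were well above background. The header times place the arrays in 3 scans: B16-F1 replicates 2 and 3 together, B16-F1 replicate 1 with D5.1G4 replicates 2 and 3, and D5.1G4 replicate 1 alone. All 8 melanocyte marker genes, among them Mitf, Sox10, Tyr and Dct, were well above background on all 6 arrays. The melanosome transporter gene Slc45a2 was the 1 of these 8 called, higher by 1.22 in B16-F1 (adjusted p = 0.000778), and of the Tyr probes the one not used for the gene gave 1.64 (adjusted p = 0.00645). Of 9 tested marker genes of leukocytes (4), endothelium (3) and keratinocytes (2) 0 were called by limma, and 0 of the 5 fibroblast markers were bright enough to be tested. Of the 9, 3 leukocyte, 3 endothelial and 2 keratinocyte genes, among them Cd3e, Kdr and Krt14, were well above background on all 6 arrays. That mark alone therefore does not identify a cell type. In RNA of a whole culture, more cells that transcribe a gene and more RNA per cell cannot be told apart.

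Of the 10 ETS genes, 5 were higher in B16-F1 (Etv1, Etv4, Etv5, Elk3 and Elf1), 1 was lower (Etv6) and 4 were not called (Ets1, Ets2, Elk1 and Erf). Over all 18454 features tested 15.2% were called, with 6.28% up and 8.9% down in B16-F1. Of the ETS genes 60% were called, and these genes were chosen with earlier results of these data known. All 3 genes of the PEA3 group rose. The median difference of the 10 genes was 0.83, beside -0.00 over all features, and the median size of the difference was 1.11, beside 0.43. By adjusted p alone, without a minimum fold, 8 of the 10 passed, where 34.9% of all features did. In 9 of the 10 all B16-F1 arrays lay on one side of all D5.1G4 arrays, as was so for 50.7% of features measured on every array.

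**Figure D1:**
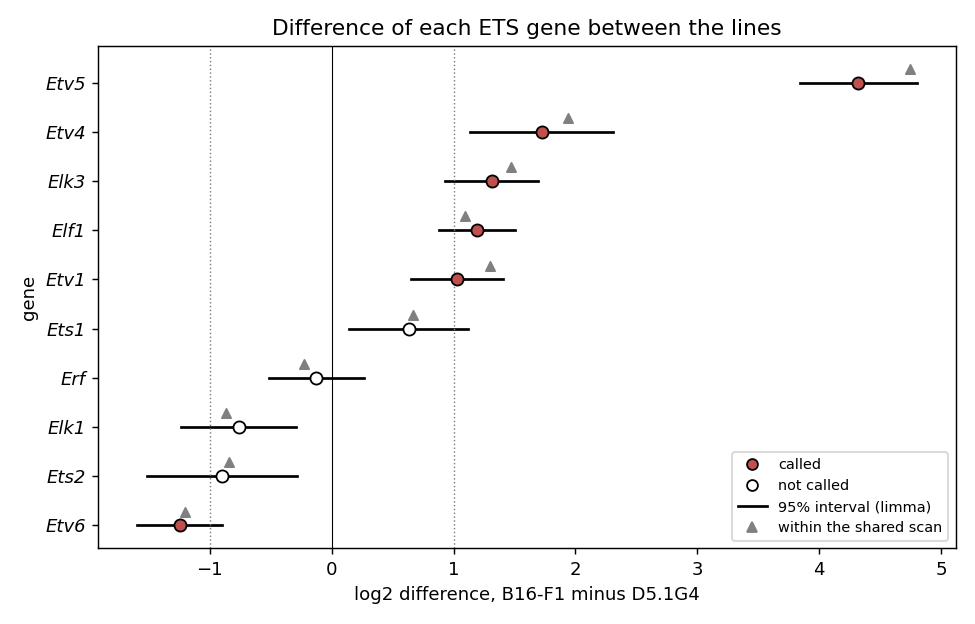
Log2 difference (B16-F1 minus D5.1G4, horizontal axis) of each of the 10 ETS genes, with the 95% interval from limma on 3 arrays of each line as a line, and the difference within the scan that holds both lines as a triangle. Dotted lines mark a fold of 2. Etv5 stands at 4.32, the other 4 genes called higher lie between 1.03 and 1.72, and Etv6 is the single gene called lower, at -1.24.

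Etv5 (ERM), a PEA3 activator that serves as a readout of fibroblast growth factor and ERK signalling in many tissues, had the largest difference of the 10. Its probe, A_55_P2037454, read 0.84, 0.19 and 0.31 on B16-F1 replicates 1, 2 and 3, against -3.80, -3.79 and -4.03 on D5.1G4 replicates 1, 2 and 3. The lines were separated by 3.97 log2 units, and the probe was well above background on every array. In intensity this was 2576, 1547 and 2531 in B16-F1 and 131.5, 60.8 and 59.9 in D5.1G4. The difference of 4.32 (SE 0.20, adjusted p = 5.71e-05, n = 3 arrays each) is a fold of 20.0, with a 95% interval of 14.3 to 27.8. In size it ranked 110th of the 18454 features, with 0.591% of features larger. Within the shared scan, where B16-F1 replicate 1 stands alone against D5.1G4 replicates 2 and 3, the difference was 4.75, and with normexp background correction over all arrays it was 3.41.

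RefSeq's promoter table for GRCm38.p6 holds 11 windows for 8 of the 10 genes, and those of Etv5 are shown because it differed most between the lines. The 250 bases before each listed start are printed 5′ to 3′ on the strand of the gene. Capitals mark the ETS core GGAA and the run TGAATG on either strand, so that TTCC and CATTCA are marked too. The first window is chr16:22439571-22439820 on the - strand and the other chr16:22438369-22438618 on the - strand.
Etv5 first window: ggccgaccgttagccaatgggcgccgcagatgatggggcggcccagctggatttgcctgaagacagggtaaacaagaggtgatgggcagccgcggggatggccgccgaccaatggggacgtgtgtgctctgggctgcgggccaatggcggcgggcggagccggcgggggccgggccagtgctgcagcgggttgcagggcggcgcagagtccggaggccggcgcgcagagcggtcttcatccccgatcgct
Etv5 other window: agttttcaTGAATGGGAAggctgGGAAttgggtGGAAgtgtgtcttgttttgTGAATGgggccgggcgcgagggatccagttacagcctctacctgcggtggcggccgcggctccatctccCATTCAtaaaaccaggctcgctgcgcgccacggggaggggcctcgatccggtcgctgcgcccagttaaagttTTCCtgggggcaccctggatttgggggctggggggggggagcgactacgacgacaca
The first window holds no GGAA. The other holds 4, one of them directly after a TGAATG so that the capitals run on, and 3 copies of TGAATG. The core GGAA is in 9 of the 11 ETS windows and in 93.4% of the 32851 windows of the table. The run TGAATG was searched after the windows had been seen, because the octamers known to bind capicua in human cells begin with it or with TCAATG. It is in 10.9% of all windows, and 0.131% hold 3 or more. The octamers themselves (TGAATGAA, TGAATGGA, TCAATGAA and TCAATGGA, both strands) are in 0 of the 11 ETS windows and in 3.19% of all. The ETS site CCGGAAGT is in 0 of the 11 windows and in 2.88% of all, and the AP-1 site TGANTCA in 1, the Elf1 window farther along the gene, and in 6.75% of all. The array does not say from which start a transcript came.

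Etv4 (PEA3), the activator after which the group is named, rose too. Probe A_55_P2078780 read -1.24, -1.94 and -1.72 on the B16-F1 arrays, against -3.72, -3.14 and -3.22 on the D5.1G4 arrays. The gap between the lines was 1.20 log2 units. The difference was 1.72 (SE 0.24, adjusted p = 0.00302), a 3.31-fold level in B16-F1 with a 95% interval of 2.20 to 4.96, and 1.94 within the shared scan. The other Etv4 probe, A_55_P1959521, was dim, at -4.83, -4.87 and -4.45 in B16-F1 and -5.71, -5.08 and -5.29 in D5.1G4. It was well above background on 3 B16-F1 arrays and 0 D5.1G4 arrays, where the signal is only a bound. Its difference of 0.64 was not called (adjusted p = 0.0545 over all probes). The bound from the means was a fold of 1.33, which takes no account of the spread between arrays. Within the shared scan the difference was 0.36, a smaller fold than that bound.

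Etv1 (ER81) had the smallest of the 3 PEA3 differences. Probe A_66_P135185 read -0.82, -1.22 and -0.94 in B16-F1, against -1.83, -2.09 and -2.14 in D5.1G4, with no overlap. The difference of 1.03 (SE 0.16, adjusted p = 0.00397) lay just past the minimum fold, with a 95% interval of 0.65 to 1.41. It fell short of a fold of 2 at 0.87 with normexp background correction and at 0.99 with quantile normalization, and without B16-F1 replicate 1 (0.94), D5.1G4 replicate 2 (0.99) or D5.1G4 replicate 3 (0.97), while the adjusted p remained at or below 0.0199 in each of these. Within the shared scan it was 1.30. The other Etv1 probe, A_55_P1986321, stayed at background on all 6 arrays and was not tested. A window of the Etv1 promoter, chr12:38779832-38780081 on the + strand, is printed for comparison with Etv5, in the same form.
Etv1 first window: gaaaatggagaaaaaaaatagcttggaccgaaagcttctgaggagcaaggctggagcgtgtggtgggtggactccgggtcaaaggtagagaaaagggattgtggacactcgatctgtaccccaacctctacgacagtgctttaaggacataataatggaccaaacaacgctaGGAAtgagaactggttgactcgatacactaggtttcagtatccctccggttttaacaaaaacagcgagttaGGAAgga
It holds 2 copies of GGAA and no TGAATG. Its GC content was 46.4%, beside 71.2% and 62% in the Etv5 windows.

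**Figure D2:**
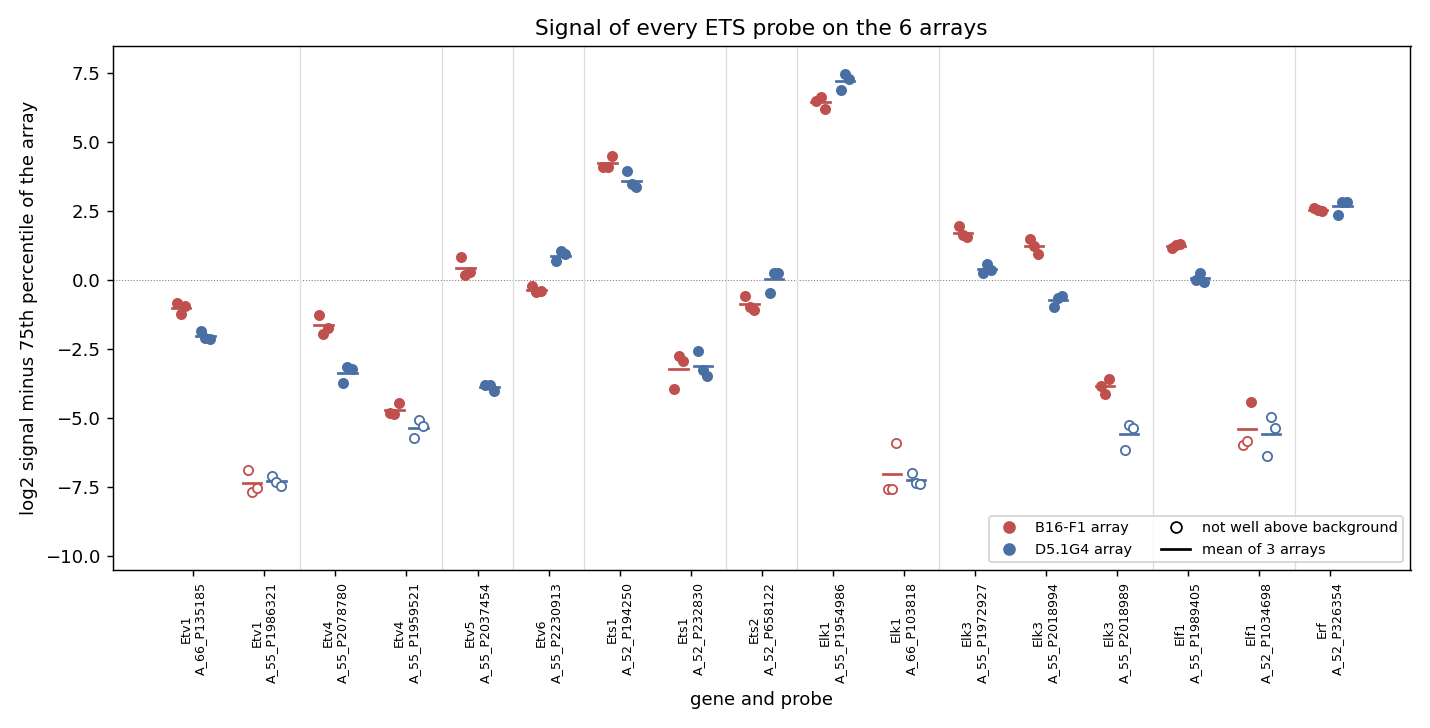
Signal (log2 minus the 75th percentile of the array, vertical axis) of all 17 ETS probes, with 1 point for each array and a bar for the mean of 3 arrays, B16-F1 in red and D5.1G4 in blue. Open points are not well above background. The 3 Elk3 probes are all higher in B16-F1, the means of the Ets1 probes differ in opposite directions, and 1 probe each of Etv1, Elk1 and Elf1 lies at background on all or, for Elf1, all but 1 of the arrays.

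Ets1 and Ets2, activators with a Pointed domain through which ERK docks, were not called, and their fitted differences had opposite signs. Ets1 probe A_52_P194250 read 4.12, 4.10 and 4.52 in B16-F1, against 3.95, 3.51 and 3.39 in D5.1G4. The B16-F1 arrays were all above the D5.1G4 arrays by a narrow gap of 0.15, and the difference of 0.63 (SE 0.20, adjusted p = 0.0541) had a 95% interval of 0.14 to 1.12. The other Ets1 probe, A_52_P232830, read -3.93, -2.74 and -2.94 in B16-F1, against -2.58, -3.25 and -3.48 in D5.1G4. These values overlapped, with a difference of -0.10 (adjusted p = 0.859). Ets2 read -0.57, -0.97 and -1.07 in B16-F1, against -0.47, 0.27 and 0.28 in D5.1G4. Here D5.1G4 replicate 1 lay next to the B16-F1 arrays, and the difference was -0.90 (SE 0.25, adjusted p = 0.0373), short of the minimum fold, with a 95% interval of -1.51 to -0.28. Without D5.1G4 replicate 1 the difference was -1.15 and without B16-F1 replicate 1 it was -1.05, and both were called (adjusted p = 0.0107 and 0.0312).

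The ternary complex factors bind serum response elements together with the serum response factor. Elk3 (Net), which represses until ERK phosphorylates it, rose, and all 3 of its probes did so. Probe A_55_P1972927 read 1.95, 1.66 and 1.55 in B16-F1, against 0.26, 0.60 and 0.36 in D5.1G4, a difference of 1.31 (SE 0.16, adjusted p = 0.00169). Probe A_55_P2018994 read 1.51, 1.23 and 0.96 in B16-F1, against -0.98, -0.63 and -0.57 in D5.1G4, a difference of 1.96 (SE 0.19, adjusted p = 0.000776). In both, every B16-F1 array lay above every D5.1G4 array. The dim probe A_55_P2018989 was well above background on 3 B16-F1 arrays and 0 D5.1G4 arrays. Its fitted difference of 1.73 (SE 0.28, adjusted p = 0.0047) was called. With the scanner's own background subtraction it was at least 2.42-fold higher. The call was lost with normexp, where the difference of 0.92 (adjusted p = 0.254) was a smaller fold than that bound. Without the 2 B16-F1 arrays scanned together, which leaves 1 B16-F1 array, the difference was 1.77 and the call was lost too.

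Elk1, the ternary complex factor best known for switching on Fos, was not called. Probe A_55_P1954986 was very bright, at 6.52, 6.65 and 6.23 in B16-F1 and 6.90, 7.47 and 7.31 in D5.1G4. All B16-F1 arrays lay below the D5.1G4 arrays, and the difference of -0.76 (SE 0.19, adjusted p = 0.0263, 95% interval -1.23 to -0.29) was smaller than the minimum fold. In intensity the probe ran from 132157 to 152477 in B16-F1 and from 148327 to 219137 in D5.1G4, with 0 saturated spots. In the authors' deposited table, whose columns share one distribution, the difference of this probe was -0.38. The other Elk1 probe, A_66_P103818, carries the same accession and stayed at background on all 6 arrays.

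Elf1, a member of the ELF subgroup studied mostly in lymphocytes, rose. Probe A_55_P1989405 read 1.18, 1.28 and 1.30 in B16-F1, against 0.02, 0.25 and -0.08 in D5.1G4. The SD of the B16-F1 arrays was 0.07, and the difference was 1.19 (SE 0.13, adjusted p = 0.00116), a fold of 2.29 with a 95% interval of 1.84 to 2.84. The other Elf1 probe, A_52_P1034698, was above background on 1 array only, B16-F1 replicate 3, and was not tested.

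The repressors Etv6 (TEL) and Erf differed in outcome. Etv6, which represses through a Pointed domain that forms polymers, was the single member called lower. It read -0.20, -0.44 and -0.40 in B16-F1, against 0.68, 1.05 and 0.95 in D5.1G4, a gap of 0.88. The difference was -1.24 (SE 0.14, adjusted p = 0.00149, 95% interval -1.59 to -0.90) and -1.20 within the shared scan. Erf read 2.62, 2.56 and 2.51 in B16-F1, inside the D5.1G4 values of 2.37, 2.85 and 2.84. Its difference of -0.12 was not called (adjusted p = 0.582), with a 95% interval of -0.51 to 0.27 that lies within a fold of 2 either way.

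Taken by probe, 14 of the 17 ETS probes were tested, and 7 were higher, 1 was lower and 6 were not called. Of the 22146 probes tested on the array 15.7% were called, 7.02% up and 8.7% down. The lines were separate in 12 of the 14 ETS probes, and in 51.6% of probes measured on every array. Of the 17 probes 12 were well above background on all 6 arrays, 2 on the 3 B16-F1 arrays and on 0 D5.1G4 arrays, 1 on a single B16-F1 array and 2 on 0 arrays. The dim Etv4 and Elk3 probes were thus tested through B16-F1 alone. Among the 12 probes above background on all 6 arrays 6 were called higher and 1 lower. The share over all probes with that filter was not computed, and over features 2058 of 15166 were called. Within the shared scan the line B16-F1 has 1 array, assumed to vary like the D5.1G4 pair that alone gives the spread, so only differences are given from it. They were 1.47 for Elk3, 1.09 for Elf1, 0.67 for Ets1, -0.84 for Ets2, -0.87 for Elk1 and -0.22 for Erf. In 6 of the 10 genes the D5.1G4 array nearest to the B16-F1 mean was replicate 1, the array scanned alone. In the other 4 it was replicate 2. The share over all features was not computed, and the part of the scan in this was not tested. The authors' deposited table held all 14 tested probes. Its differences were 4.29 for Etv5, 1.69 for the bright Etv4 probe, 0.99 for Etv1 and -1.25 for Etv6.

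**Figure D3:**
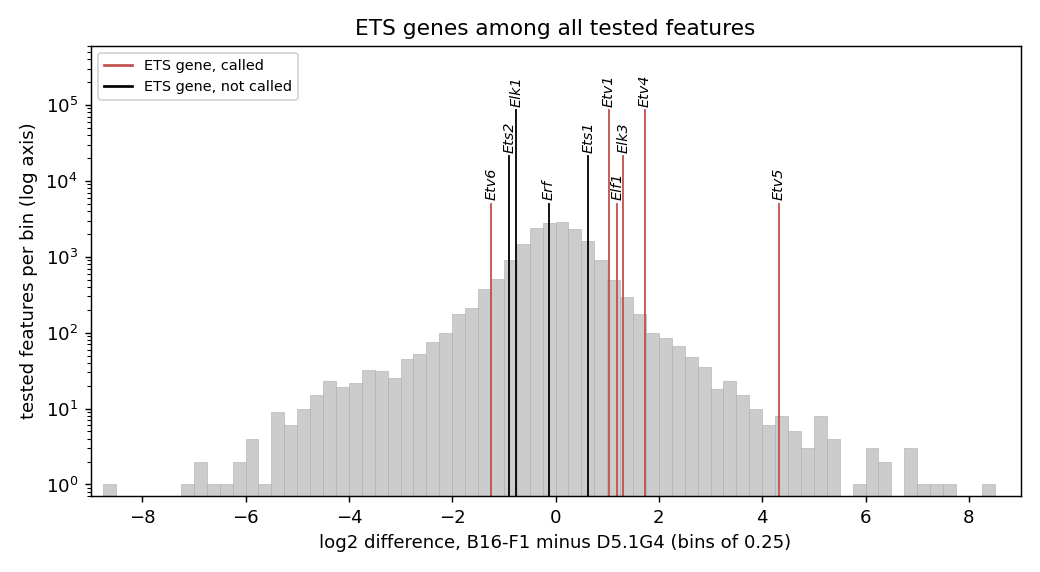
Number of tested features (vertical axis, log scale) by log2 difference (B16-F1 minus D5.1G4, horizontal axis, in bins of 0.25), with the 10 ETS genes as lines, red where called. Etv5, at 4.32, lies in the upper tail, with 0.591% of the 18454 features larger in size, while the other called members lie on the shoulders.

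Of the remaining ETS family 1 gene was called, which is 14.3% of those tested, beside 15.2% of all features. Of 16 other members 7 stayed at background on all 6 arrays, among them Erg, Fli1 and Spi1, which are factors of endothelial and blood cells, and 7 were tested, with 1 higher and 0 lower. This was Elf2, at 2.67, 2.81 and 3.17 in B16-F1, against 2.00 and 1.25 on the D5.1G4 arrays 1 and 2, where the spot of replicate 3 was marked by the scanner and left out. Its difference was 1.26 (SE 0.29, adjusted p = 0.0239). The call was lost with normexp (adjusted p = 0.0879), and without B16-F1 replicate 2 (adjusted p = 0.0611), B16-F1 replicate 3 (0.0686), D5.1G4 replicate 2 (0.0867) or the 2 B16-F1 arrays scanned together (0.194). Gabpa, with B16-F1 replicate 1 marked and left out, and Etv3 differed by 0.82 and 1.30 and were not called (adjusted p = 0.0387 and 0.131).

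Of 12 tested regulators of ETS factors 1 was higher and 0 lower, with a median of -0.07. This is 8.33% called, beside 15.2% of all features. Map2k1, the gene of the kinase MEK1 that activates ERK, read 2.82, 2.86 and 3.22 in B16-F1, against 1.06, 1.31 and 1.18 in D5.1G4, a difference of 1.78 (SE 0.15, adjusted p = 0.000512). Its partner Map2k2 differed by -0.55 and was not called (adjusted p = 0.029). The degradation genes Cop1 and Det1 differed by -0.08 and -0.05 (adjusted p = 0.694 and 0.799), while another Cop1 probe, A_55_P2022104, gave 0.80 (adjusted p = 0.00374), also under the minimum fold. The capicua gene Cic was not analysed here.

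Among 7 tested genes of the ERK feedback loop, which rise with PEA3 factors where ERK is active, 4 were higher and 0 lower. Of the 7, 57.1% were called, beside 15.2% of all features, and the list was chosen with earlier results of these data known. Their median was 1.85, and 0.66 when genes at background in D5.1G4 were entered at their bound. Il17rd and Spry4 were tested only because the 3 B16-F1 arrays were above background, so they could hardly have come out lower. With features above background on all 6 arrays 2 of 5 genes were called higher, where 2058 of all 15166 such features were called either way. Il17rd (SEF), a membrane inhibitor of fibroblast growth factor signalling, read -1.63, -1.93 and -2.16 in B16-F1 and stayed at background on the 3 D5.1G4 arrays. Its fitted difference was 3.41 (adjusted p = 8.92e-05). With the scanner's own background subtraction it was at least 9.34-fold higher. With normexp its fitted log2 difference was 1.93 (adjusted p = 0.0159), a smaller fold than that bound. The others were Spry1 (1.92, SE 0.28), the ERK phosphatase gene Dusp6 (1.85, SE 0.15) and Spry4, with D5.1G4 replicate 1 marked and left out. Spry4 was called on its fitted difference of 2.52 against arrays at background, while its bound is only 1.24-fold. Its call was lost with normexp (adjusted p = 0.534), with the authors' values (0.134) and when marked spots were kept (0.105), and that of Spry1 without the 2 B16-F1 arrays scanned together (adjusted p = 0.0737). Dusp4, the gene of another ERK phosphatase, was not called, at -0.00 (SE 0.15, adjusted p = 0.994).

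Of 6 tested serum response genes, the set that ternary complex factors bind with SRF, 2 were higher and 0 lower, with a median of 0.61. This is 33.3% called, beside 15.2% of all features. Fos differed by 1.63 (SE 0.16, adjusted p = 0.000778) and the nuclear receptor gene Nr4a1 by 1.31 (SE 0.14, adjusted p = 0.00119). Fos lost its call with normexp (0.99, adjusted p = 0.121). Srf itself differed by -0.72 (adjusted p = 0.0166) and was not called, being under the minimum fold. Another Srf probe went the opposite way, at 0.60 (adjusted p = 0.0118), also under the minimum fold. Of 12 tested genes known in other systems as ETS targets 1 was higher, the receptor gene Kit, and 0 were lower. This is 8.33% called, beside 15.2% of all features. Kit was tested through B16-F1 alone, and was at least 5.06-fold higher with the scanner's own background subtraction. Of the 18 listed, 6 stayed at background on all 6 arrays, among them the protease genes Mmp3, Mmp9 and Plau and the cyclooxygenase gene Ptgs2. The other 11 were not called and ranged from -0.84 (Mmp2, adjusted p = 0.093) to 2.36 (Mmp14, adjusted p = 0.0876, above background on 1 D5.1G4 array). Among them Vim differed by -0.82, Ccnd1 by 0.84 and Vegfa by 0.76 (adjusted p = 0.0121, 0.0107 and 0.00359), all under the minimum fold. The other Vegfa probe went the opposite way, at -0.60 (adjusted p = 0.262).

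**Figure D4:**
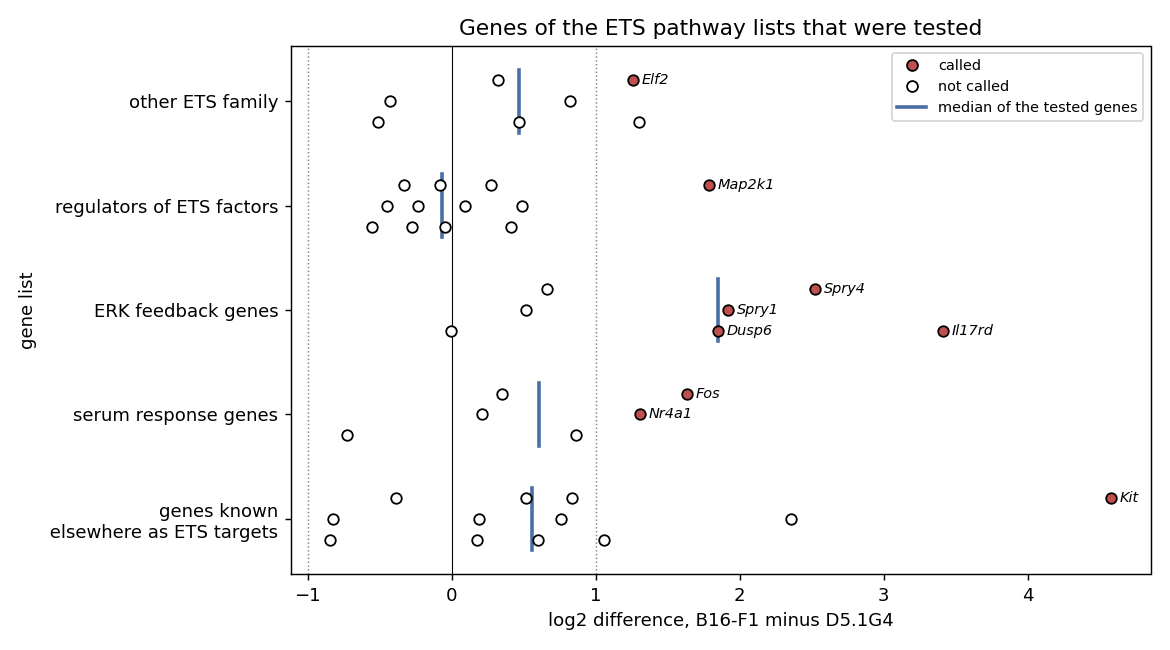
Log2 difference (B16-F1 minus D5.1G4, horizontal axis) of the tested genes of 5 lists around the ETS factors, 1 point for each gene, red and named where called, with a blue bar for the list's median. The called genes are all on the right, and the ERK feedback list has 4 called of 7. Over all features 15.2% were called. Values of Spry4, Il17rd and Kit are fitted differences against D5.1G4 arrays at background, and these genes were tested through B16-F1 alone.

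The genes whose pattern over the 6 arrays was nearest to that of Etv5, among 12068 compared by the root mean square difference of centred log2 values, were Tspyl4 (0.13), Gpc4 (0.14), Tgfb1 (0.15), Kit (0.16) and Igf2bp1 (0.19). Like Etv5, each read highest on B16-F1 replicate 1, which the choice by likeness to Etv5 favours. For Igf2bp1 the margin was small, at -1.05 on B16-F1 replicate 1 against -1.07 on replicate 2. All 5 stayed at background on the D5.1G4 arrays, whereas Etv5 was above it on all 3. The 5 genes were thus tested through B16-F1 alone, and being higher there follows from how they were chosen. They were at least 11.7-fold (Tspyl4), 3.63-fold (Gpc4), 6.30-fold (Tgfb1), 5.06-fold (Kit) and 15.7-fold (Igf2bp1) higher in B16-F1 with the scanner's own background subtraction. With normexp the fitted log2 differences were 2.29, 1.81, 1.92, 2.02 and 2.59 in the same order, and Gpc4 lost its call (adjusted p = 0.0595). All 5 are smaller folds than the bounds.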

How the data were processed

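RNA of 3 B16-F1 and 3 D5.1G4 samples was hybridised to 1-colour Agilent arrays (design 026655, annotation mm9). Per the file headers, the deposited intensity of each spot came from Agilent Feature Extraction 11.0.1.1, background-subtracted and detrended within the array, with marks of 0 or 1 (coded as other) for background, saturation and outliers. The authors' deposited table holds log2 values of 22147 probes, exactly those well above background on at least 3 arrays. Neither headers nor labels say how these values were normalized. The log2 intensity minus the array's 75th percentile was used, spots marked non-uniform or outlying were left out, and repeated spots were averaged by probe. Accessions, without version, were matched to RefSeq genes (GRCm38.p6): 27234 of 39429 probes (69.1%) had 1 gene. The probe with the highest mean stood for a gene. Features well above background on at least 3 of 6 arrays were tested with limma 3.58.1 in R 4.3.3 (lmFit, eBayes), with line as the only term and 2-sided Benjamini-Hochberg adjustment over all features, or over all probes for single probes. The code was tested on simulated data. Where a line had no array well above background, a fold is a bound: the brighter line's mean against, per array, the larger of its own signal and the dimmest spot well above background. The number of arrays limits the precision.

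All 10 ETS genes were named whatever their values, with called members of the lists and the 5 genes nearest to Etv5; other list genes were named after their values were seen. The ETS genes and the lists were chosen with earlier results of these data known. The scanner files lack a mean spot signal, so normexp (offset 50) used the median signal and median background. Alternatives covered background, normalization, filters, marked spots, scan, replicates, probes and the variance model. Same-numbered arrays did not deviate together (correlations of deviations -0.39, -0.03 and -0.30), so the replicate number was not taken as a pairing.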

Additional observations from a re-analysis of the deposited data

How the results depend on the processing

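The calls of Etv4, Etv5, Etv6, Elk3 and Elf1 and the absence of a call for Ets1, Elk1 and Erf were the same under all 19 alternatives run for each gene, with differences of 1.18 to 2.12, 3.41 to 4.75, -1.35 to -1.10, 1.20 to 1.67, 1.06 to 1.29, 0.27 to 0.80, -0.92 to -0.38 and -0.28 to -0.03. Within the shared scan, and without the 2 B16-F1 arrays scanned together, B16-F1 has 1 array, assumed to vary like D5.1G4, so calls there say little of stability. The 19 are also not separate checks. Keeping marked spots and changing the filter left the differences of these genes the same. The authors' values gave nearly the differences of quantile normalization, and scan as a block gave those of the shared scan. Etv1 lost its call with normexp (0.87), quantile normalization (0.99) and the authors' values (0.99), and ranged from 0.94 to 1.14 when an array was left out. Ets2 ranged from -1.15 to -0.77 when an array was left out, and gained a call when replicate 1 of either line was missing. The number of ETS genes and of ETS probes called lower was then 1 to 2 each, and 3 each with no minimum fold. The dim Ets1 probe turned to 0.0015 with normexp, and with an array left out it ranged from -0.33 to 0.27, above 0 without replicate 1 of B16-F1 (0.27) or of D5.1G4 (0.16). The cause was not tested.

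Over all features, normexp called 535 higher and 715 lower, and no minimum fold 2671 higher and 3765 lower, against 1159 and 1642. Numbers in the lists moved by 1 or more. Other ETS members called higher were 0 with normexp, with features above background on all 6 arrays, without the 2 B16-F1 arrays scanned together and with a replicate block, 2 with no minimum fold, and 0 to 2 with an array left out. Regulators with no minimum fold were 2 higher and 1 lower. ERK feedback genes called higher were 2 of 5 with features above background on all 6 arrays, where 2058 of 15166 features were called. Serum response genes were 1 higher with normexp and 1 lower with no minimum fold. Target genes called higher were 0 with features above background on all 6 arrays, 2 with scan as a block, within the shared scan and without the 2 arrays scanned together, 4 with no minimum fold and 1 to 3 with an array left out, and called lower 1 within the shared scan, 1 with no minimum fold and 0 to 1 with an array left out. With the replicate number as a block no call of the 10 ETS genes changed (Etv5 4.32, adjusted p = 0.00307), and 2580 features were called in place of 2801. With scan as a block, or within the shared scan, the median of all features was -0.15, and with no filter on dim probes -0.17, so differences there stand against that shift. Saturation limited no spot; 3 ETS probes were too dim to test.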
